A study of Mus musculus with 2 samples.

Results

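The genes described here mark the projection neurons of cortical layer 5. They are Fezf2, Bcl11b, Etv1, Parm1, Deptor, Crym, Bcl6, Tcerg1l, Sulf2 and Pcp4, chosen by name as markers of layer 5 and of its extratelencephalic and intratelencephalic cell types. A probe set, the group of array probes summarised into a single value, was taken when its annotation named only 1 gene and that gene was in this list. All 10 genes were measured, by 12 of the 23521 probe sets that name 1 gene. Etv1 and Deptor had 2 probe sets each.

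The samples form 1 group of 2 arrays, both described as technical replicates, of medial prefrontal cortex pooled from 5 adult D2Cre::RiboTag mice. In these mice Cre recombinase is driven by Drd2, the dopamine D2 receptor gene, and RiboTag gives Cre-expressing cells a haemagglutinin-tagged ribosomal protein, so that their ribosomes and the bound messengers can be precipitated with an antibody. That both arrays come from the same pool is assumed, and they carry no information on variation between animals. Input RNA, a mock pull-down and further conditions were not analysed here, so neither enrichment over whole cortex nor carry-over of untagged RNA was measured. RiboTag recombination is permanent, so ribosomes stay tagged in cells in which Cre was active only earlier. In pooled tissue, fewer cells of a type and less RNA per cell cannot be told apart. Values are given as log2 signal, read as such because of the range they span, and the number of arrays limits their precision.

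Layer 5 is the main output layer of the neocortex. Its extratelencephalic neurons send axons to the brainstem, thalamus and spinal cord, while its intratelencephalic neurons project within the cortex and to the striatum. The transcription factor Fezf2 specifies the extratelencephalic fate during development, in part through Bcl11b (also called Ctip2). In rodent prefrontal cortex, D2 receptors have been studied in layer 5 pyramidal cells that project subcortically. Several of these genes are not private to layer 5. Bcl11b and Pcp4 are also expressed by striatal projection neurons, Bcl11b by cortical interneurons, and Crym by layer 6 cells.

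All 12 probe sets of the layer 5 identity genes were above background on both arrays. A probe set was called above background when its signal exceeded, on each array, the 95th percentile of 1400 probe sets for olfactory and vomeronasal receptor genes, which lay at 5.62 on replicate 1 and 5.66 on replicate 2. Of all 23521 probe sets that name 1 gene, 60.0% passed this rule, and 63.6% did so when the sensory receptor probe sets were left out. The median over the 12 probe sets was 9.09 on replicate 1 and 9.04 on replicate 2, against 6.35 on each array over all probe sets that name 1 gene. Under the strictest threshold tried, the 95th percentile of 34 probe sets for testis, liver and skeletal muscle genes (7.37 on replicate 1 and 7.16 on replicate 2), 11 of the 12 remained above, and 36.9% of all probe sets did. The exception was an Etv1 probe set at 7.08 and 7.15, which on replicate 2 lay just under that threshold. The threshold falls between the probe sets of Acta1 (7.89 and 8.08) and Apoa2 (7.09 and 6.67), so it depends on single probe sets. All 12 also exceeded the 99th percentile of the sensory receptor probe sets (44.9% of all probe sets), the median of all probe sets on each array (57.3%) and a threshold from sensory receptor genes averaged over their probe sets (60.1%). With the probe sets of a gene averaged, 10 of 10 genes passed the main rule, against 60.2% of all genes. Because the genes were picked as cortical markers with earlier results of these arrays known, the counts describe the list and are no test of it.

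**Figure D1:**
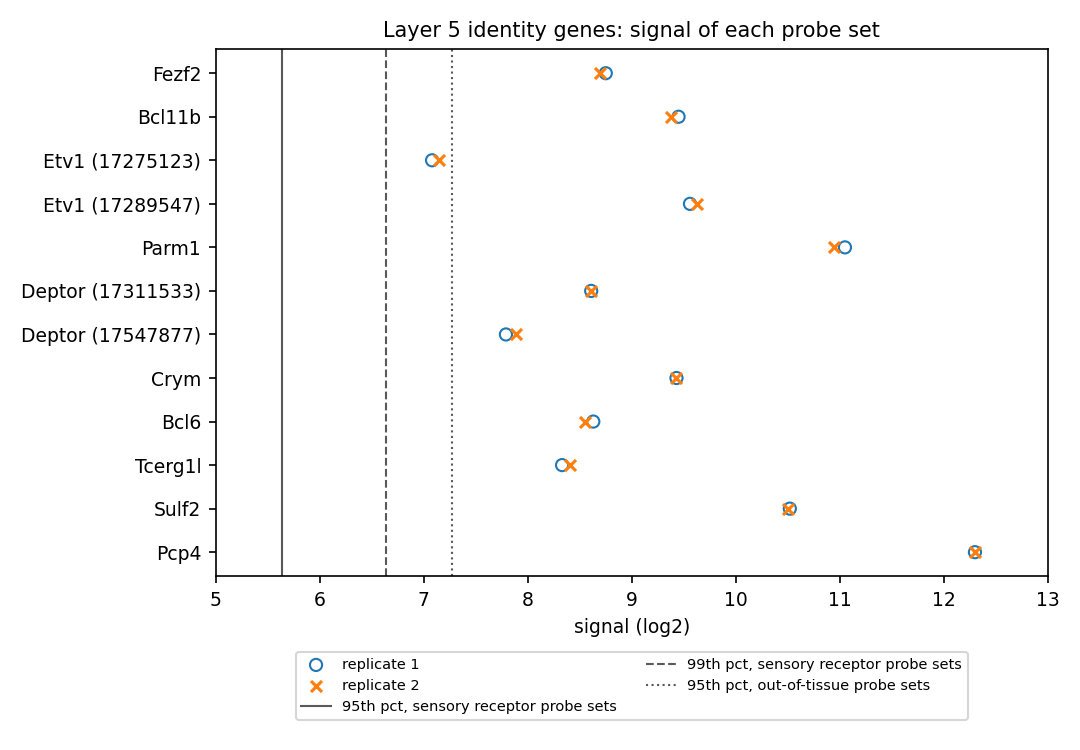
Log2 signal (horizontal axis) of each of the 12 probe sets, with replicate 1 as circles and replicate 2 as crosses. Vertical lines are 3 background thresholds, each averaged over the arrays (5.64, 6.64 and 7.27). Every probe set lies right of the solid and dashed lines, and only the Etv1 probe set at 7.08 and 7.15 lies left of the dotted line.

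The factors that specify extratelencephalic neurons both gave signal. Fezf2, a zinc finger repressor, was at 8.75 on replicate 1 and 8.69 on replicate 2, a mean of 3.08 log2 units over the thresholds. Bcl11b, a zinc finger factor needed for corticospinal axon outgrowth, was at 9.45 and 9.38, or 3.77 units over them. The arrays thus placed each factor within 0.07 units of itself, and only 1 of the 1400 sensory receptor probe sets reached either factor on both arrays. That probe set belongs to Vmn1r233, which stood at 11.49 and 11.40 and shows that an out-of-tissue gene can give high signal here. The testis gene Odf1 likewise had a probe set at 9.94 and 10.09 that passed every threshold tried. Its other probe set, at 4.98 on both arrays, passed none.

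Bcl6, a transcriptional repressor that in mouse cortex promotes neurogenesis and in the immune system directs germinal centre B cells, was at 8.63 on replicate 1 and 8.55 on replicate 2. It lay 2.95 units over background and passed every threshold tried.

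Etv1, an ETS-domain factor (also called Er81) that marks layer 5 neurons, had probe sets that did not read alike. Probe set 17275123 was at 7.08 and 7.15, and probe set 17289547 at 9.56 and 9.63. Their means differed by 2.48 log2 units, while each repeated within 0.07 units between arrays. The lower probe set was above the main threshold by 1.47 units and above the 99th percentile of sensory receptor probe sets (6.64 and 6.63), but on both arrays it was below the threshold from testis, liver and muscle genes. The higher passed all thresholds. At the strictest threshold, the call for Etv1 rests on probe set 17289547 alone.

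The identifiers of the Etv1 probe sets place them apart. Identifiers of this array largely follow gene order: for 98.4% of the probe sets with a placed gene, most of the 10 nearest named probe sets on each side belong to genes of the same chromosome in the RefSeq table. Of the 20 neighbours of the lower probe set, 19 belong to genes on chromosome 12, where Etv1 lies. Of the 20 neighbours of the higher probe set, 0 do, and all 20 belong to genes on chromosome 13. No neighbour on the gene's own chromosome was seen for 0.707% of placed probe sets. Which sequence the higher probe set reads was not tested, since the probe sequences were not used here.

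Promoter windows of members were read from RefSeq (GRCm38.p6), which held 11 windows for 8 of the 10 genes. Crym and Deptor had none in the table. A window covers 250 bases before to 50 after an annotated start. The windows of Fezf2 and Bcl11b, the fate-specifying factors, and of Pcp4, which also marks extratelencephalic neurons, are shown 5′ to 3′ on the gene's strand, with CpG dinucleotides in capitals.
Fezf2 (chr14:12345816-12346115, minus strand): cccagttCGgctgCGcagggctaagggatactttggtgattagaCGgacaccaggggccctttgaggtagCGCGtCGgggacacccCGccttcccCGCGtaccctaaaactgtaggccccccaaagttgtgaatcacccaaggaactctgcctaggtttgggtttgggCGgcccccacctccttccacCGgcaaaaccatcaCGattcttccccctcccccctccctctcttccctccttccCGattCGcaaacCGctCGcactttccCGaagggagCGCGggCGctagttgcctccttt
Bcl11b (chr12:108003365-108003664, minus strand): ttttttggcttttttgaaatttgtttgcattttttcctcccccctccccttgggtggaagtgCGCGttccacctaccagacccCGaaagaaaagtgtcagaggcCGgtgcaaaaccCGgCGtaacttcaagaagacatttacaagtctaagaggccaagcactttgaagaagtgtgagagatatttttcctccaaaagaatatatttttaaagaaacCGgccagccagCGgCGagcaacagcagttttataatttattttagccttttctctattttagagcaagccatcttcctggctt
Pcp4 (chr16:96467356-96467655, plus strand): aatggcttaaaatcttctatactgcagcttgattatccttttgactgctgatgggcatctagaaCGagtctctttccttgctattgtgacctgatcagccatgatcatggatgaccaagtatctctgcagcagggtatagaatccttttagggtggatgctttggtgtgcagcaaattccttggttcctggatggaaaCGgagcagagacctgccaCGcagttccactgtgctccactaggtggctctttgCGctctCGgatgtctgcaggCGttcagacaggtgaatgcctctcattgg

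These windows differ in composition. That of Fezf2 holds 20 CpG and is 61.3% G and C, that of Bcl11b holds 9 CpG and is 43.0% G and C, and that of Pcp4 holds 6 CpG and is 48.7% G and C. Over all 32851 windows of that length, the medians are 7 CpG and 52.7% G and C. At least 20 CpG are held by 26.5% of all windows, at least 9 by 45.8% and at least 6 by 56.4%. The windows of Fezf2 and Bcl11b lie inside the RefSeq span of their genes, so a further annotated start lies upstream of each. Searched on both strands, GGGCGG occurs in the Fezf2 window, TATAAA in the Bcl11b window and CCAAT in the Pcp4 window, and no window of the 3 holds more than 1 of these motifs. Over all windows, GGGCGG occurs in 35.7%, TATAAA in 13.6% and CCAAT in 37.4%. The 11 windows of members hold GGGCGG in 4 cases, TATAAA in 3 and CCAAT in 3. TGACGTCA, the cyclic AMP response element, is in 0 of the 11 and in 1.79% of all windows. None of these 4 motifs contains another on either strand. A match is a description of the letters and was not set against signal.

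Pcp4 encodes a small calmodulin-binding protein (PEP-19) that speeds calcium exchange by calmodulin and marks extratelencephalic neurons. It was at 12.30 on both arrays, 6.66 units over background, and 0 of the 1400 sensory receptor probe sets reached it. Crym encodes mu-crystallin, which binds thyroid hormone in the cytosol, and was at 9.43 on both arrays, 3.79 units over background. These genes and the higher-reading Deptor probe set gave equal values on both arrays to the 2 decimals deposited. Equal values occurred in 3 of the 12 probe sets, against 4.19% of all probe sets that name 1 gene.

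Deptor encodes a protein that binds and inhibits the kinase mTOR, and its messenger marks upper layer 5 in mouse cortex. Probe set 17311533 was at 8.61 on both arrays and probe set 17547877 at 7.79 on replicate 1 and 7.89 on replicate 2. Both passed every threshold tried, and their means differed by 0.77 units. All 20 neighbours of 17311533 by identifier are genes of chromosome 15, where Deptor lies, whereas 5 of the 19 placed neighbours of 17547877 are, and those neighbours come from 7 chromosomes.

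Sulf2 encodes an extracellular sulfatase that removes 6-O-sulfate groups from heparan sulfate and so alters growth factor binding. It was at 10.52 on replicate 1 and 10.50 on replicate 2, 4.87 units over background. Parm1, a mucin-like membrane protein, was at 11.05 and 10.94, or 5.35 units over background. Tcerg1l was at 8.33 and 8.41, or 2.73 units over background. All 3 passed every threshold tried.

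The arrays differed by at most 0.11 log2 units for these probe sets. Replicate 1 was higher for 5 probe sets, replicate 2 for 4, and 3 were equal. For 11 of the 12, the absolute difference was smaller than the SD of the difference over all probe sets of like signal (within the same whole log2 unit), as it was for 69.5% of all probe sets that name 1 gene. Parm1 was the exception, at 0.11 against an SD of 0.0995, and 31.1% of the 1296 probe sets of that signal differed by as much or more.

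**Figure D2:**
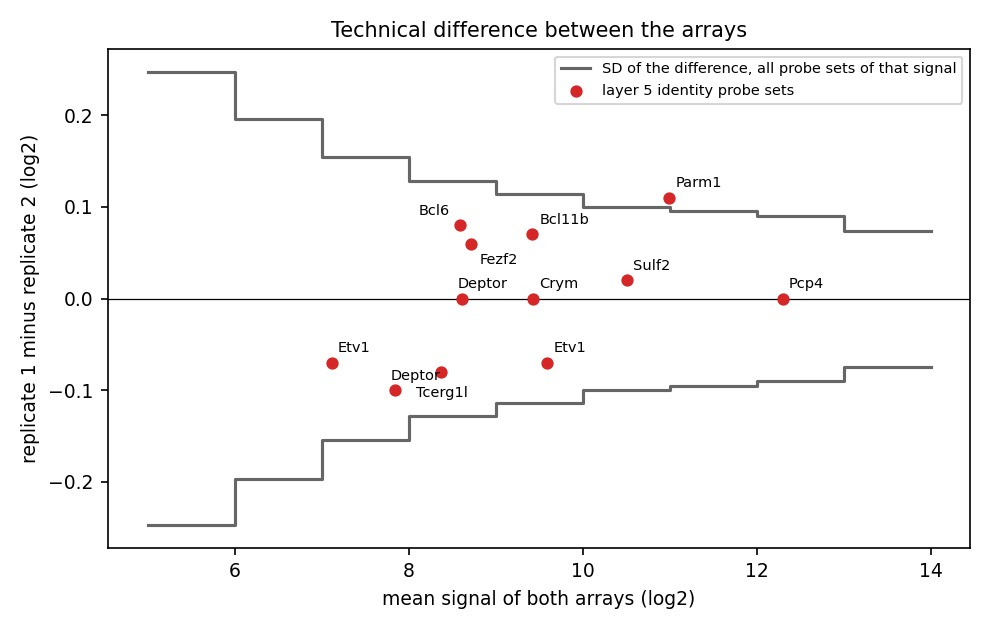
Difference between the arrays (replicate 1 minus replicate 2, log2) against mean signal (log2) for the 12 probe sets, as points. Grey steps are plus and minus 1 SD of the difference over all probe sets in each log2 unit of signal. The points lie within the steps except Parm1 at 0.11, and the SD narrows from 0.247 at signals of 5 to 6 to 0.0897 at 12 to 13.

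Close relatives of the members were read for comparison of calls, not of levels, since probe sets bind with different strength. Of 9 probe sets for 7 measured paralogs, 7 were above background, against 60.0% of all probe sets that name 1 gene. Fezf1, a factor of the olfactory system and hypothalamus, was not above background, at 5.64 on replicate 1 and 5.57 on replicate 2. It exceeded the threshold on replicate 1 only, by less than the SD of the difference at that signal (0.247). Bcl11a (Ctip1), which acts in corticocortical and layer 6 neurons, had a probe set at 10.99 and 10.89 and another at 5.25 and 5.11, on different sides of the threshold. Etv1's nearest relatives gave signal too. Etv4 was at 5.93 and 6.06, and Etv5 had probe sets at 10.37 and 10.46 and at 6.24 and 6.58. Neither Etv4 nor the lower Etv5 probe set reached the 99th percentile of sensory receptor probe sets. Of the 9 paralog probe sets 4 exceeded it, against 44.9% of all probe sets that name 1 gene. The threshold from testis, liver and muscle genes was also passed by 4 of the 9, against 36.9% of all.

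Bcl6b, the relative of Bcl6, was at 6.09 and 5.71, close over the threshold on replicate 2, and failed the stricter thresholds. Sulf1, the other extracellular sulfatase, was at 8.46 and 8.32. Pcp4l1, the relative of Pcp4, was at 10.77 and 10.70. These last 2 genes passed every threshold, as their layer 5 relatives did.

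**Figure D3:**
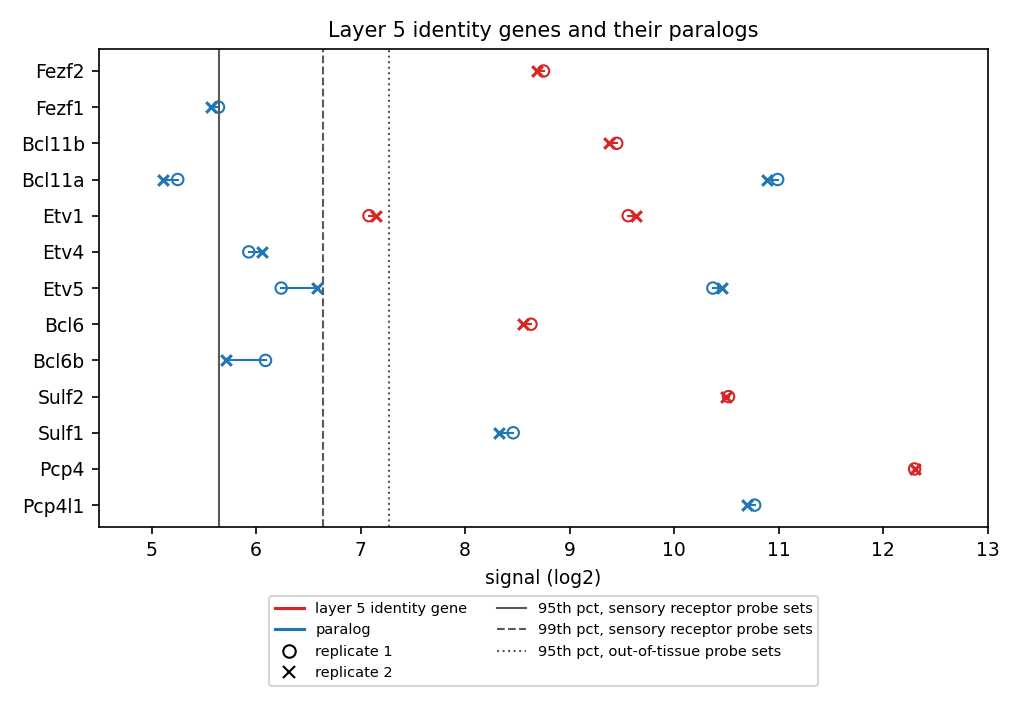
Log2 signal (horizontal axis) of the layer 5 identity genes that have a measured paralog (red) and of those paralogs (blue), with replicate 1 as circles, replicate 2 as crosses and the same 3 thresholds as vertical lines. A gene with 2 probe sets has 2 pairs of symbols. Fezf1 lies at the solid line (5.64 and 5.57), and Bcl11a and Etv5 each have probe sets more than 4 log2 units apart.

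Further markers of layer 5 cell classes gave a mixed picture. Of 11 measured extratelencephalic markers outside the list, 9 were above background, with a median of 8.12. The main rule passed 60.0% of all probe sets that name 1 gene. The extratelencephalic markers above background included the cofactor Ldb2 at 11.05 and 11.10 and the transmembrane protein Crim1 at 9.85 and 9.72. The POU factor Pou3f1, at 8.08 and 8.15, was also among them. Those not above background were the formin Diaph3, at 5.42 and 5.30, and the nicotinic receptor subunit Chrna6, at 5.16 and 5.33. At the threshold from testis, liver and muscle genes, 7 of the 11 remained, against 36.9% of all probe sets that name 1 gene.

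Of 11 probe sets for 10 intratelencephalic markers, 7 were above background, with a median of 7.23, and 5 exceeded the strictest threshold. The share of 63.6% above background lies near the 60.0% of all probe sets. The strictest threshold was passed by 36.9% of all probe sets. The nuclear receptor Rorb, which also marks layer 4, was at 8.24 and 8.09. The cortisone reductase Hsd11b1, at 5.61 and 5.68, exceeded the threshold on replicate 2 only. Endou at 5.38 and 5.41 and the factor Batf3 at 4.87 and 4.92 exceeded it on neither array. The collagen gene Col6a1 had a probe set above background, at 8.13 and 7.82, and another below, at 5.38 and 5.23.

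Near-projecting neurons of layers 5 and 6 were covered by 7 probe sets of 5 genes, of which 5 were above background with a median of 6.44. The vesicular glutamate transporter Slc17a8 was at 6.50 and 6.37. The zinc finger factor Tshz2 had probe sets at 8.02 and 8.09, above, and at 5.69 and 5.34, which passed on replicate 1 only. The thyrotropin-releasing hormone receptor Trhr, at 5.31 and 5.10, was not above background. Only 3 of the 7 passed the 99th percentile of sensory receptor probe sets, and only the higher Tshz2 probe set passed the threshold from testis, liver and muscle genes. Over all probe sets that name 1 gene, 60.0% passed the main threshold, 44.9% the 99th percentile and 36.9% the threshold from those tissues.

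Factors that act beside Fezf2 and Bcl11b in setting projection neuron fate were mostly above background. Of their 10 probe sets 9 passed, with a median of 8.10, against 60.0% of all probe sets that name 1 gene. At the threshold from testis, liver and muscle genes 7 of the 10 remained, against 36.9% of all. Tbr1, which represses Fezf2 in layer 6, was at 9.53 and 9.46. Sox5, which times the expression of Bcl11b in mouse, was at 8.14 and 8.17, and Zfpm2 (Fog2), a factor of corticothalamic cells, at 8.43 and 8.34. Sox4 had probe sets on both sides of the threshold, at 6.98 and 7.11 and at 4.75 and 4.96.

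Most probe sets for biochemical partners of members were above background as well, a rule that 60.0% of all probe sets naming 1 gene passed. Each of the 9 mTOR complex genes passed, with a median of 8.93, including Mtor at 10.09 and 10.07, Rptor at 10.20 and 10.26 and Rictor at 9.16 and 9.04. Of 8 probe sets for thyroid hormone genes, relevant to Crym, 7 were above background with a median of 7.52. The receptors Thra and Thrb were at 10.56 and 10.50 and at 10.02 and 9.97, and their partner Rxra at 7.59 and 7.52. Dio2, the deiodinase that activates the hormone, had a probe set at 7.03 and 6.93 and another at 4.69 and 4.84.

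For Sulf2, the probe sets of heparan sulfate genes passed in 11 of 11 cases (median 8.96). The chain polymerases Ext1 and Ext2 were at 9.86 and 9.68 and at 8.50 and 8.48, and the sulfotransferase Ndst2 at 7.34 and 7.46. For Pcp4, all 6 probe sets of measured calmodulin partners were above background, with a median of 10.54. Camk2a was at 12.41 and 12.38, Camk2b at 10.41 and 10.45, and Camk4 had probe sets at 10.25 and 10.24 and at 6.39 on both arrays. The calmodulin genes themselves were not analysed here. For Bcl6, the measured corepressor genes Bcorl1, Sirt1 and Hdac3 passed in 3 of 3 cases, at 8.21 and 8.36, 7.98 and 7.80, and 10.46 and 10.38. The threshold from testis, liver and muscle genes was passed by 36.9% of all probe sets. Above it were 8 of 9 mTOR complex, 5 of 8 thyroid hormone and 9 of 11 heparan sulfate probe sets. For calmodulin partners and Bcl6 corepressors it was 5 of 6 and 3 of 3. Most of these partners are expressed in many cell types, and their signal says nothing about layer.

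Other cell classes gave signal in the same RNA, so the layer 5 genes did not stand alone. Upper layer markers were above background in 10 of 11 probe sets (median 8.68) and layer 6 markers, a list that shares Crym, in 10 of 11 (median 8.02). The exceptions were a probe set each of Cux1 and Ccn2, genes whose other probe set passed. Glutamatergic markers, among them Slc17a7, passed in 9 of 9 probe sets (median 10.81). GABAergic markers, among them Gad1, Gad2 and Slc32a1, passed in 8 of 8 (median 8.84). Striatal projection neuron markers, among them Penk, Gpr6 and Rgs9, passed in 8 of 9 (median 8.81), Isl1 being the exception. Bcl11b and Pcp4 are also genes of striatal neurons, Bcl11b of interneurons and Crym of layer 6 cells. These arrays do not assign the signal of any of the 10 genes to layer 5 cells. The part of other cells in that signal was not tested. Markers of astrocytes (8 of 8), oligodendrocytes (7 of 7), microglia (8 of 8) and vessels (7 of 9) were mostly above background too. Their medians were 7.87, 8.54, 6.94 and 6.68. The main rule passed 60.0% of all probe sets that name 1 gene. At the threshold from testis, liver and muscle genes, which passed 36.9% of them, 6 astrocyte, 6 oligodendrocyte, 3 microglial and 2 vascular probe sets remained. The same threshold left 10 of 11 upper layer, 8 of 11 layer 6 and 7 of 9 glutamatergic probe sets. It left 7 of 8 GABAergic and 8 of 9 striatal probe sets, beside 11 of 12 for the layer 5 identity genes. Genes of testis, liver and skeletal muscle passed in 1 of 11, 2 of 12 and 5 of 11 probe sets. Drd2 itself was at 10.78 and 10.70.

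**Figure D4:**
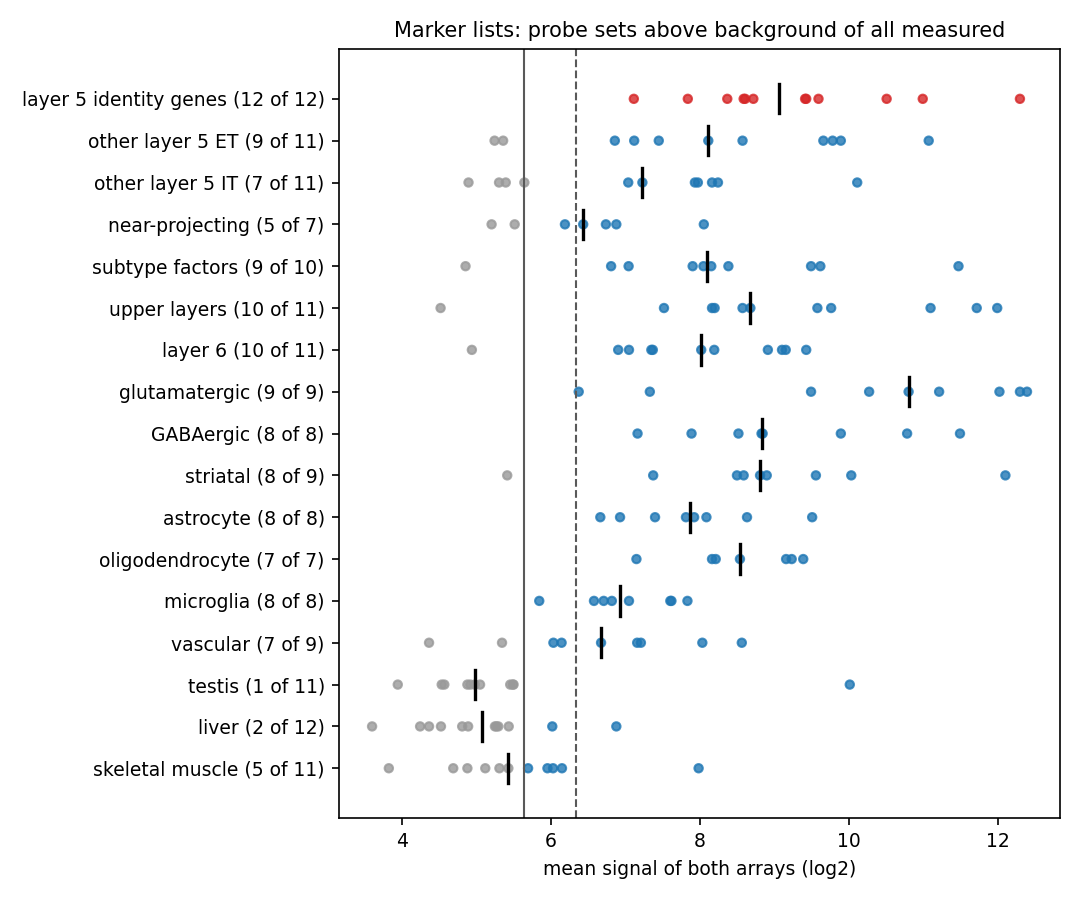
Mean log2 signal over both arrays (horizontal axis) of each measured probe set of the layer 5 identity genes (red) and of other marker lists (blue), grey where not above background on both arrays, with the list median as a black bar and counts above background in brackets. The solid line is the threshold (5.64) and the dashed line the median of all probe sets that name 1 gene (6.35). The 12 layer 5 probe sets run from 7.12 to 12.30, and the near-projecting, microglial and vascular medians lie between 6.44 and 6.94.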

How the data were processed

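RNA from precipitated ribosomes was labelled with the GeneChip WT Plus kit, per the labels' protocols. The authors deposited 1 processed value per probe set and array. These are taken as log2 values from their range. How background correction, summarisation and normalization were done, and on which build, is not given in the sources used here. Of 34472 probe sets, 23521 named 1 gene in the platform annotation, 1814 several (0 of them a member) and 9137 are unnamed here. The deposited log2 values were used unchanged, and 0 columns were left unused. Analysis used Python 3.11.15 with pandas 2.3.3 and numpy 2.4.6. The call rule was run on simulated probe sets placed 1 log2 unit above or below the threshold. That run says nothing about calls closer to the threshold. The layer 6 gene Ctgf was matched under its RefSeq symbol Ccn2.

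There is 1 group of 2 technical arrays, so no test was made, no p-value is given, and the number of arrays limits precision. Members, gene lists and rules were chosen with earlier results of these arrays known. Of 22 other lists, the genes named are the paralogs, members not above background or with probe sets on different sides of it, and the first 3 measured. For lists of other cell classes and tissues only counts and some of these names are given. Likeness of pattern between genes could not be measured with 1 group. Alternatives were other thresholds, the mean or highest probe set of a gene, quantile normalization and each array alone.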

Additional observations from a re-analysis of the deposited data

How the results depend on the processing

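All 12 probe sets of the layer 5 identity genes stayed above background under the 99th percentile of sensory receptor probe sets, the median of all probe sets, the threshold from averaged receptor genes, quantile normalization and each array alone. The threshold from testis, liver and muscle genes left 11. By the mean or the highest probe set of a gene, 10 of 10 genes passed. Their median was 9.07, and 9.42 with the highest probe set of each gene, where the lower probe sets of Etv1 and Deptor drop out. On a single array it ranged from 9.04 to 9.09. The mean over probe sets put Etv1 at 8.36, a level that neither of its probe sets shows, and Deptor at 8.23.

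The count of near-projecting probe sets, 5 of 7, was 3 at the 99th percentile and 1 at the threshold from testis, liver and muscle genes, which by construction are stricter. On a single array it ranged from 5 to 6. Counts for the other layer 5 lists stayed within 1.5 times their main value. Of 171 list counts beyond these, 10 moved by more than that, all downwards and all under these stricter thresholds. They were the counts of paralogs and of microglial, vascular, liver and skeletal muscle genes. The largest difference between arrays, 0.11, was the same after quantile normalization, an alternative chosen after seeing the data. The remaining limit is the design: 2 technical arrays of a pool. No paired analysis was possible because the samples form 1 group.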

Other observations

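Disagreement between probe sets of a gene was common on these arrays. Of 1082 genes with more than 1 probe set, 466 (43.1%) had them on different sides of the threshold, and the median gap was 2.14 log2 units. The gap of Etv1, 2.48, was met or exceeded by 43.3% of these genes, that of Deptor, 0.77, by 80.0%, and that of Bcl11a, 5.76, by 3.60%.

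Distance by identifier was uncommon, though more frequent among such genes. No neighbour on the gene's own chromosome was seen for 6.35% of 2411 placed probe sets of genes with several probe sets, against 0.0574% of 20917 probe sets of genes with 1. The higher Etv1 probe set is of this kind. The probe sets of Bcl11a are not: all 20 neighbours of each are on its chromosome. The lower Etv5 probe set has 8 of 20 neighbours on the gene's chromosome, and the higher has 20 of 20.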
